A study of Mus musculus with 2 samples.

Results

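The tripartite motif (TRIM) genes were taken as the rows of the deposited gene table whose symbol is Trim followed by a number and at most a single letter. There were 54 of them among 16830 genes. The table compares CD4+CD25hiYFP+ Treg cells, sorted from spleen and lymph nodes of C57BL/6 mice, between 2 genotypes. WT Treg cells came from *Foxp3*-YFP-Cre mice, in which Cre and YFP are expressed from the *Foxp3* locus, and USP21-ΔTreg cells from mice that carried the same Cre allele and the floxed *Usp21* allele on both chromosomes. Mice of both genotypes were 6 months old. Each genotype had 1 library (23198412 fragments in genes for WT Treg and 23418575 for USP21-ΔTreg cells), and how many mice went into a library is not given in the sources used here. Without replicates no test could be made, and what follows compares a pair of libraries. Deletion was limited to cells that express *Foxp3*.

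Most TRIM proteins have a RING domain, which gives ubiquitin ligase activity, followed by B-box zinc fingers and a coiled coil, and they differ in the C-terminal domain that selects the target. Interferons induce a subset of them, and members of this subset bind retroviral capsids, act as ligases in cytosolic RNA and DNA sensing, or restrain the resulting signals. Other members have separate tasks, such as the TIF1 proteins in chromatin silencing and the NHL-repeat proteins that are best known from neurons. USP21, the deubiquitinase deleted here, removes ubiquitin and so has the opposite activity to these ligases.

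The targeted gene and the identity of the cells were examined first. *Usp21* stood at 11.8 FPKM in WT Treg and 4.56 FPKM in USP21-ΔTreg cells, a value over the whole gene that also counts transcripts of undeleted exons. FPKM values are fragments scaled for the length of the transcript and the depth of the library, so levels of different genes can be compared. Among the 6 markers of Treg cells, *Foxp3* (91.8 and 55.2 FPKM), *Ctla4* (516 and 532 FPKM), *Ikzf2*, *Cd4* and *Cd3e* were present in both libraries, while *Il2ra*, which encodes CD25, stood at 168 and 19.3 FPKM. Markers of other cells were mostly higher in USP21-ΔTreg cells. *Hba-a1* stood at 8.84 FPKM in WT Treg and 43.1 FPKM in USP21-ΔTreg cells, and *Klrd1* at 0.70 and 15.8 FPKM. *Nkg7* stood at 10.2 and 18.4 FPKM and *Cd8b1* at 8.13 and 16.2 FPKM, both less than 2-fold apart. Their levels in USP21-ΔTreg cells lay within the range of the TRIM genes. All 5 B cell markers were higher, 4 of them at least 2-fold (summed FPKM 11.2 in WT Treg and 27.6 in USP21-ΔTreg cells), and so were the 5 NK and CD8 T cell markers with a mean of at least 1 FPKM, 2 of them at least 2-fold (22.1 and 58.4 FPKM). Of the 3 myeloid markers with such a mean 2 were at least 2-fold higher (7.25 and 13.2 FPKM in sum of the 3) and *Mpeg1* was lower (3.11 and 1.84 FPKM, log2 ratio −0.73 on FPKM and −1.07 on scaled counts). Of the 4 globin genes, which share reads, 2 were higher and 2 lower. Of all genes with a mean of at least 1 FPKM, 7.78% were at least 2-fold higher on FPKM and 6.2% at least 2-fold lower. No marker of these lists that is in the table was at 0 in either library. The part of such cells in the values of the TRIM genes was not tested, and in sorted bulk RNA fewer cells of a type and less RNA per cell cannot be told apart.

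Of the 54 TRIM genes, 35 averaged at least 1 FPKM across the pair of libraries and were kept, and 27 of these had a mean of at least 5 FPKM. The plot of FPKM by gene and group shows that *Trim30a* and *Trim28* were the most abundant in both libraries. *Trim30a*, an interferon-induced inhibitor of NF-κB signalling in the mouse, stood at 118 FPKM in WT Treg and 59.2 FPKM in USP21-ΔTreg cells. *Trim28* encodes KAP1, the corepressor of KRAB zinc finger proteins, and stood at 83.0 and 50.6 FPKM. The order of the 35 genes differed most for *Trim30d*, which stood at rank 6 in WT Treg and rank 16 in USP21-ΔTreg cells. *Trim21* stood at ranks 9 and 14 and *Trim25* at ranks 14 and 19, while *Trim59* stood at ranks 17 and 9 and *Trim35* at ranks 10 and 4. There was no replicate spread against which to set these ranks. The summed FPKM of the kept TRIM genes was 832 in WT Treg and 722 in USP21-ΔTreg cells.

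**Figure D1:**
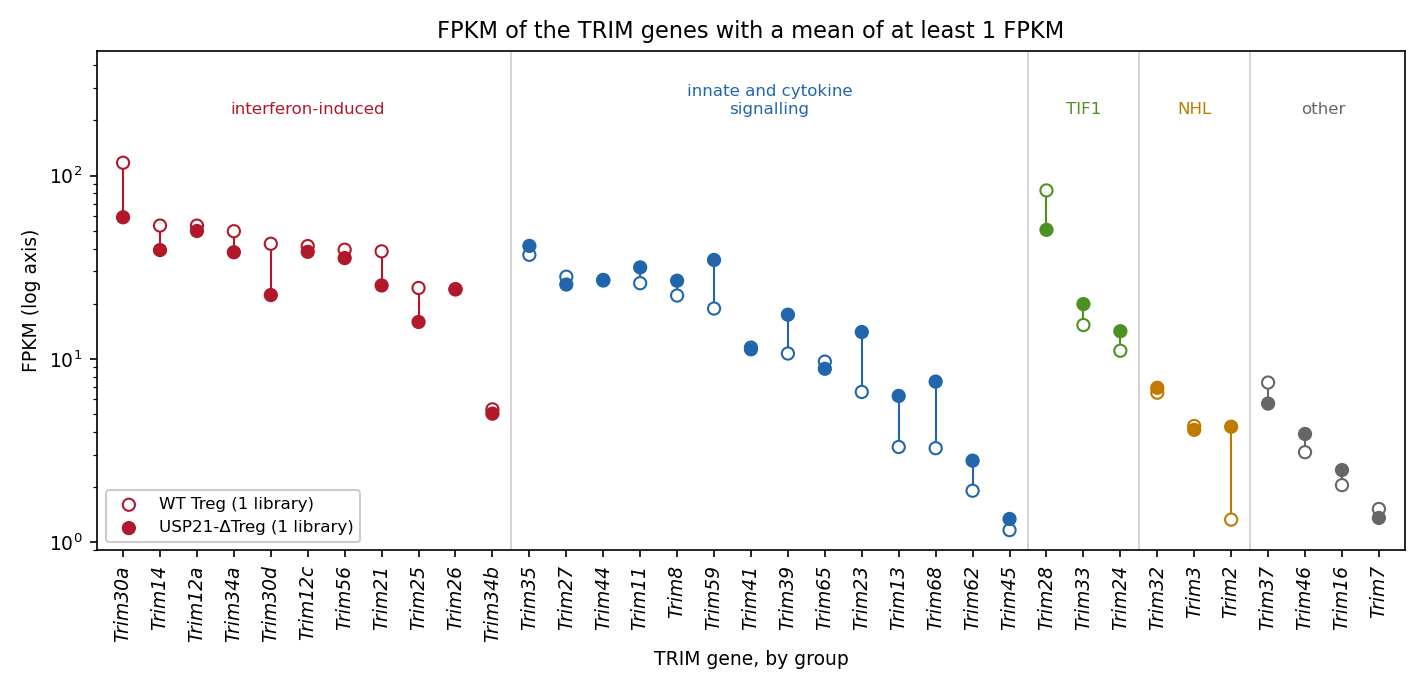
FPKM (log axis) of the 35 TRIM genes with a mean of at least 1 FPKM, by group, with 1 open point for the WT Treg library and 1 filled point for the USP21-ΔTreg library and a line joining them. In the interferon-induced group the filled point lies below or level with the open point for all 11 genes, whereas in the innate and cytokine signalling group most filled points lie above.

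A pair of ratios was computed for each gene, USP21-ΔTreg over WT Treg. The first is the log2 ratio of FPKM + 0.1, which understates differences of low genes, and the second is the ratio of fragment counts that the authors had scaled between the libraries, with a 95% Clopper-Pearson interval for counting error only. Over all 10948 kept genes the median log2 ratio was 0.20 on FPKM and −0.01 on scaled counts, and over the TRIM genes it was 0.00 and −0.07. On FPKM, 3 of the 35 TRIM genes were higher in USP21-ΔTreg cells by 2-fold or more (8.57%, against 7.78% of all kept genes) and 0 were at least 2-fold lower (against 6.2%). On scaled counts 2 were at least 2-fold higher (5.71%, against 4.34% of all kept genes) and 2 were at least 2-fold lower (5.71%, against 7.93%). At a limit of 1.5-fold on FPKM, 6 were higher (17.1%, against 22.9%) and 5 lower (14.3%, against 12.1%). Most of these shares lie near those of all genes, and they are no result about the family. The counting interval lay above 1 for 10 TRIM genes (28.6%, against 35.9% of all kept genes) and below 1 for 16 (45.7%, against 38.8%), so at this depth an interval clear of 1 was common and carries no information on variation between mice.

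**Figure D2:**
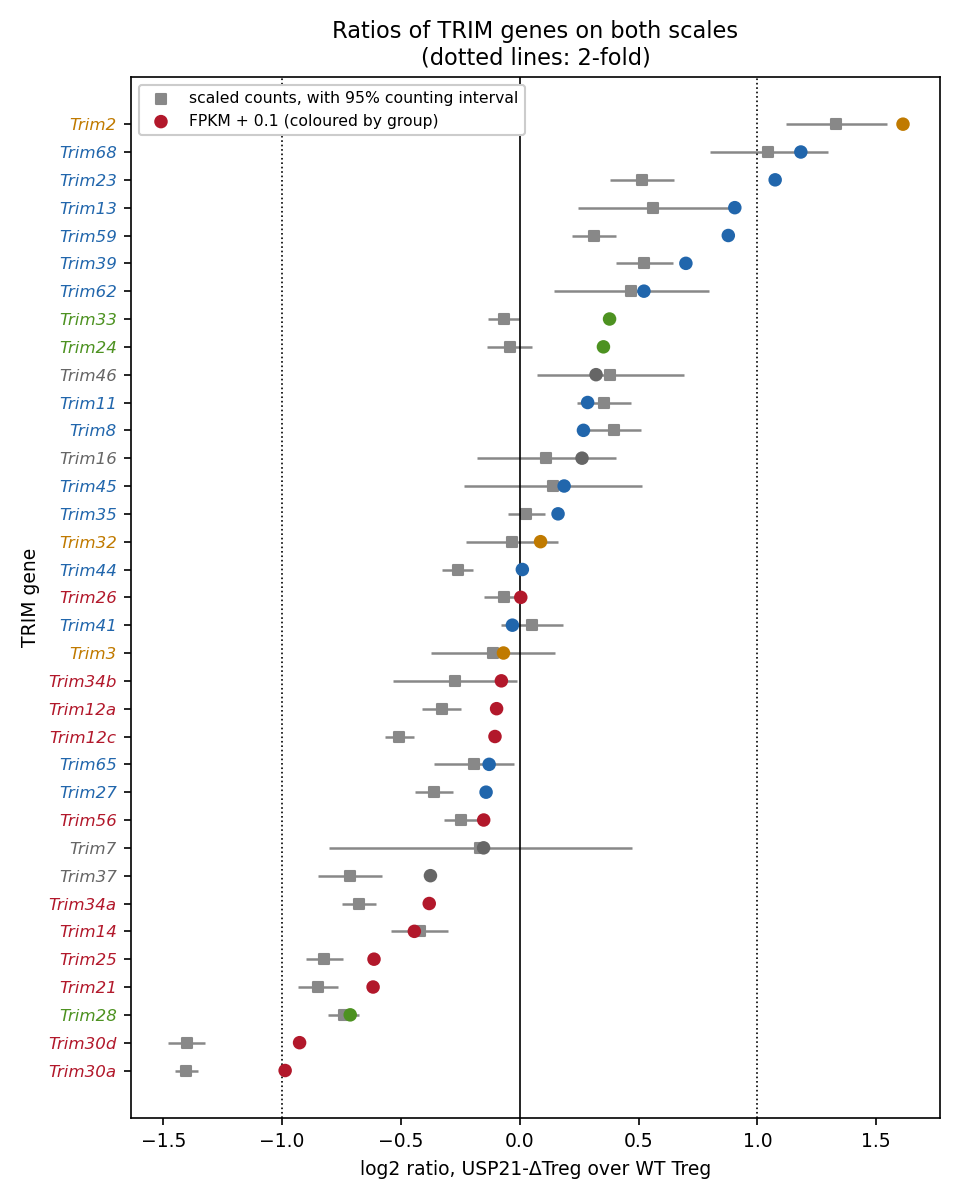
Log2 ratios, USP21-ΔTreg over WT Treg, of the 35 kept TRIM genes, with round points for FPKM + 0.1 coloured by group and grey squares for scaled counts with their 95% counting intervals. Dotted lines mark 2-fold, which *Trim2*, *Trim68* and *Trim23* pass on FPKM and *Trim30a* and *Trim30d* pass in the other direction on scaled counts alone.

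Groups of TRIM genes lay at different places within this spread. The 11 measured genes of the interferon-induced group had a median log2 ratio of −0.38 on FPKM and −0.51 on scaled counts, and all 11 lay below the median of all genes on either scale. The 24 other TRIM genes had medians of 0.27 and 0.08, and 13 of them lay above the median of all genes on FPKM and 14 on scaled counts. The groups are lists chosen with earlier results of these data known, and the interferon-induced list also takes in retroviral restriction genes. This is a description over genes that share the same pair of libraries, and the difference between the groups was not tested.

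Because interferon-induced genes are bound by the factor ISGF3 at an element called the ISRE, promoters were searched for its core. The core was taken as GAAA, any 2 bases and GAAA again, which reads TTTC, any 2 bases and TTTC on the opposite strand, and both strands were searched in 300 bases of RefSeq sequence (GRCm38.p6), from 250 before to 50 after each start site. Of the 54 TRIM genes 42 had such a sequence, and 8 of these (19.0%) held the core, against 3.99% of the 27025 genes with a promoter in the table. In the interferon-induced group 7 of 10 measured genes with a promoter held it, and among the other measured TRIM genes 1 of 17. A match is a run of letters and not a shown binding site. The 30 bases around each match are printed on the strand of the gene, with the core in capitals, to show how alike neighbouring genes are, and the coordinates are those of the 300 bases that were searched:
Trim30a, chr7:104465144-104465443, minus strand: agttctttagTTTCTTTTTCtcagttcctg
Trim30a, second start site, chr7:104446076-104446375, minus strand: ttgtttttagTTTCTTTTTCtcagttcctg
Trim30d, chr7:104507800-104508099, minus strand: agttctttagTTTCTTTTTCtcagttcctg
Trim12a, chr7:104315446-104315745, minus strand: agagttgtggTTTCTGTTTCatttccagag
Trim12c, chr7:104353300-104353599, minus strand: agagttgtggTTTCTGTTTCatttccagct
Trim34a, chr7:104244207-104244506, plus strand: tggtttggagTTTCAGTTTCttttctctgc
Trim21, chr7:102565433-102565732, minus strand: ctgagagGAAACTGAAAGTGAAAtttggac
Trim26, chr17:36836896-36837195, plus strand: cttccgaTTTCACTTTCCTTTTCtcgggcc
Trim2, chr3:84212789-84213088, minus strand: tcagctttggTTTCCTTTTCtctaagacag

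The core and its flanks were the same letters in *Trim30d* and at the first *Trim30a* start site listed. The second *Trim30a* start site differed in the flank before the core. In *Trim12a* and *Trim12c* they were nearly the same, and *Trim21* and *Trim26* each held 2 overlapping cores. In *Trim2* the match lay at 1 of 5 start sites in the table. The 8 genes with the core had a median log2 ratio of −0.24 on FPKM and −0.59 on scaled counts, and the 19 measured TRIM genes whose promoters lacked it had medians of 0.09 and −0.03. Most of the 8 (*Trim30a*, *Trim30d*, *Trim12a*, *Trim12c* and *Trim34a*) lie in a cluster on chromosome 7, described below. Holding the core and lying in that cluster are therefore not separate observations. Of the 8 genes with the core, 6 lay below 0 on FPKM and 7 on scaled counts, against 8 and 10 of the 19 without it. The core did not mark direction gene by gene: of the 8, *Trim26* was level on FPKM and *Trim2* was the highest of all kept TRIM genes. The core of the other interferon element, GAS (TTCNNNGAA), was found in 0 of the 10 interferon-induced promoters and in 9.55% of the genes in the table.

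*Trim30a* (Entrez gene 20128) and *Trim30d* (Entrez gene 209387) had the lowest ratios among the 35 kept TRIM genes. *Trim30a* spans positions 104409025 to 104465193 of chromosome 7 (mm10, minus strand), and *Trim30d* next to it from 104470014 to 104507849. *Trim30d* stood at 42.5 FPKM in WT Treg and 22.3 FPKM in USP21-ΔTreg cells. The log2 ratio of FPKM was −0.99 for *Trim30a* and −0.93 for *Trim30d*, which is just short of 2-fold. On scaled counts, *Trim30a* (12459 fragments in WT Treg and 5286 in USP21-ΔTreg cells) had a ratio of 0.378 (95% interval 0.366 to 0.391), and *Trim30d* (4426 and 1879 fragments) had one of 0.378 (0.358 to 0.400), so that both were past 2-fold on that scale. Of the 50-base words in *Trim30a* transcripts 5.98% also occur in *Trim30d*. For the alignment below, the first *Trim30a* start site listed above was used. The pair was picked for its ratios in these data, and a link between the ratios and the sequences was not tested. The 250 bases before their start sites aligned with 227 identical bases, 18 mismatches and 10 gap positions:
Trim30a, chr7:104465194-104465443, minus strand: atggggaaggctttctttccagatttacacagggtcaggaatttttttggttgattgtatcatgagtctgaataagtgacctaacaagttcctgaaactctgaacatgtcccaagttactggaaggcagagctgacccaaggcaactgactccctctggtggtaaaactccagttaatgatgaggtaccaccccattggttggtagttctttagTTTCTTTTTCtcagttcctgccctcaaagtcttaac
Trim30d, chr7:104507850-104508099, minus strand: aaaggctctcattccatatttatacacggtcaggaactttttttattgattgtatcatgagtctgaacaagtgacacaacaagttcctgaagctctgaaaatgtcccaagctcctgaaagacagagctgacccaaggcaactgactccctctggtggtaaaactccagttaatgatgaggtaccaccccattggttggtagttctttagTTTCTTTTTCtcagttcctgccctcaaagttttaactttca

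The chromosome 7 cluster runs from *Trim6* at position 104218793 to the end of *Trim30d*. *Trim34a*, whose human counterpart binds retroviral capsids, stood at 49.7 FPKM in WT Treg and 38.2 FPKM in USP21-ΔTreg cells (log2 ratio −0.38, scaled count ratio 0.626, 95% interval 0.596 to 0.658). *Trim12a* (53.3 and 49.8 FPKM) and *Trim12c* (41.2 and 38.4 FPKM), which are mouse relatives of primate TRIM5, had log2 ratios of −0.10 each on FPKM and scaled count ratios of 0.796 (0.753 to 0.843) and 0.704 (0.675 to 0.734). *Trim34b*, at 5.30 and 5.02 FPKM (log2 ratio −0.08), shares 56.8% of its 50-base words with *Trim34a*, and *Trim12c* shares 33.0% of its words with other genes, mostly *Trim5* and *Trim12a*, so the split of reads among these is uncertain. *Trim6* and *Trim30b*, which lie inside the cluster, were below 1 FPKM in both libraries. All 6 measured genes of the cluster lay below 0 on both scales, *Trim30a* and *Trim30d* by most. Of all 10948 kept genes, 4003 lay below 0 on FPKM and 5537 on scaled counts. The cluster made up 37.2% of the summed TRIM FPKM in WT Treg and 29.5% in USP21-ΔTreg cells.

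**Figure D3:**
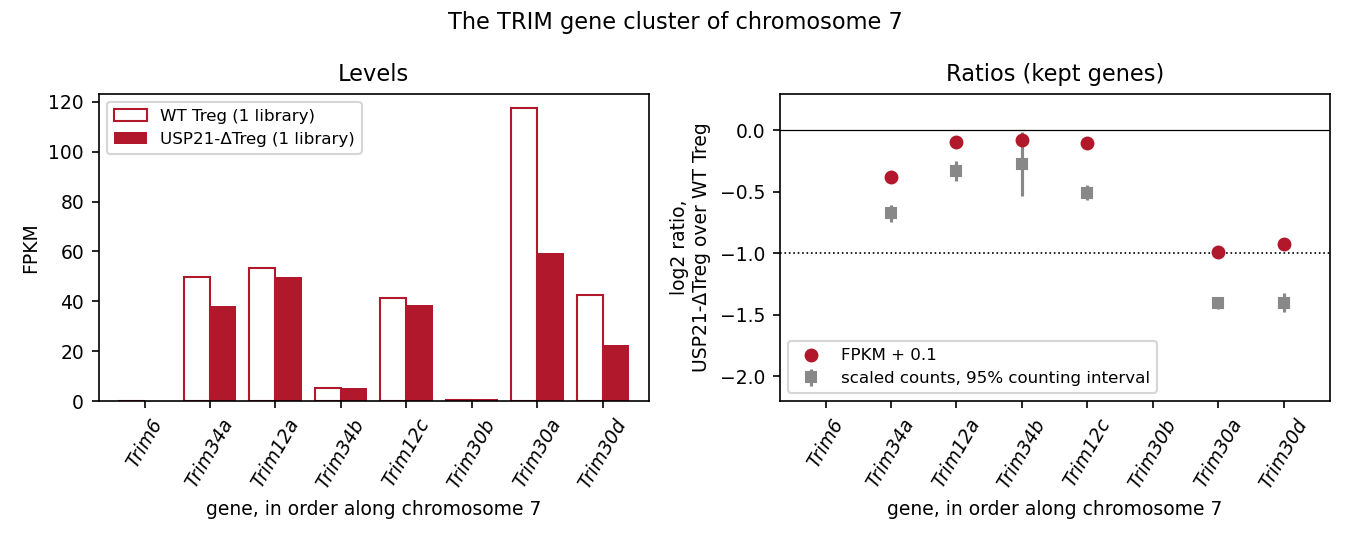
Genes of the chromosome 7 TRIM cluster in their order along the chromosome, with FPKM in each library as bars on the left and log2 ratios on the right (round points FPKM + 0.1, squares scaled counts with 95% counting intervals). *Trim30a* and *Trim30d* lie at −0.99 and −0.93 on FPKM, below their 4 measured neighbours.

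Outside the cluster, *Trim21* and *Trim25* were lower by an amount like each other's, and by less than *Trim30a* and *Trim30d*. *Trim21*, a cytosolic receptor for antibody-coated virus, stood at 38.6 FPKM in WT Treg and 25.1 FPKM in USP21-ΔTreg cells (log2 ratio −0.62, scaled count ratio 0.556, 95% interval 0.524 to 0.589). *Trim25*, a ligase of the RIG-I pathway, stood at 24.4 and 15.9 FPKM (log2 ratio −0.61, scaled count ratio 0.565, 95% interval 0.535 to 0.597). *Trim14*, which lacks a RING domain and acts as an adaptor at MAVS, stood at 53.4 and 39.2 FPKM (log2 ratio −0.44, scaled count ratio 0.747, 0.687 to 0.812), and it overlaps *Nans* on the other strand. *Trim56*, a ligase of the STING pathway, at 39.4 and 35.5 FPKM (−0.15), and *Trim26*, at 23.9 and 24.0 FPKM (0.00), were nearly level on FPKM. On scaled counts the interval of *Trim56* lay below 1 (0.801 to 0.884) and that of *Trim26* spanned 1 (0.901 to 1.01).

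This group was set beside the genes of the pathway it belongs to. Of 33 type I interferon response genes, 26 were at least 2-fold lower on FPKM (against 6.2% of all kept genes) and 0 higher (against 7.78%). Their median log2 ratio was −2.01 (range −4.68 to 0.25). On scaled counts 28 were at least 2-fold lower (against 7.93% of all kept genes), with a median of −2.26. *Isg15*, the ubiquitin-like modifier, stood at 174 FPKM in WT Treg and 12.5 FPKM in USP21-ΔTreg cells (−3.79), and *Oas2*, *Oasl2* and *Ifit3* had log2 ratios of −4.68, −3.65 and −3.24. The kept TRIM genes with the lowest ratios, *Trim30a* at −0.99 and *Trim30d* at −0.93, differed by less than the median gene of this list. Of 5 genes of ISG15 conjugation, a system in which TRIM25 has also been described as a ligase in human cells, 3 were at least 2-fold lower on FPKM. These were *Isg15*, the deconjugating protease *Usp18* (−2.41) and the E2 *Ube2l6* (−1.34). On scaled counts 4 were, as *Herc6* was also past 2-fold there (−1.24, against −0.71 on FPKM). *Pml*, which encodes the TRIM protein of nuclear bodies under another symbol, stood at 28.2 and 12.5 FPKM (−1.17). Genes of sensing and of TAK1 and TBK1 signalling, on which several TRIM ligases act, had a median of −0.04. Of these 15, the RNA sensor *Ifih1* (−1.13) was the only one past 2-fold on FPKM, while on scaled counts the RNA sensor *Ddx58* (−1.08) and *Traf6* (−1.15) were also past it. *Ifih1* and *Ddx58* are in the interferon response list as well, as are *Isg15* and *Usp18*.

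**Figure D4:**
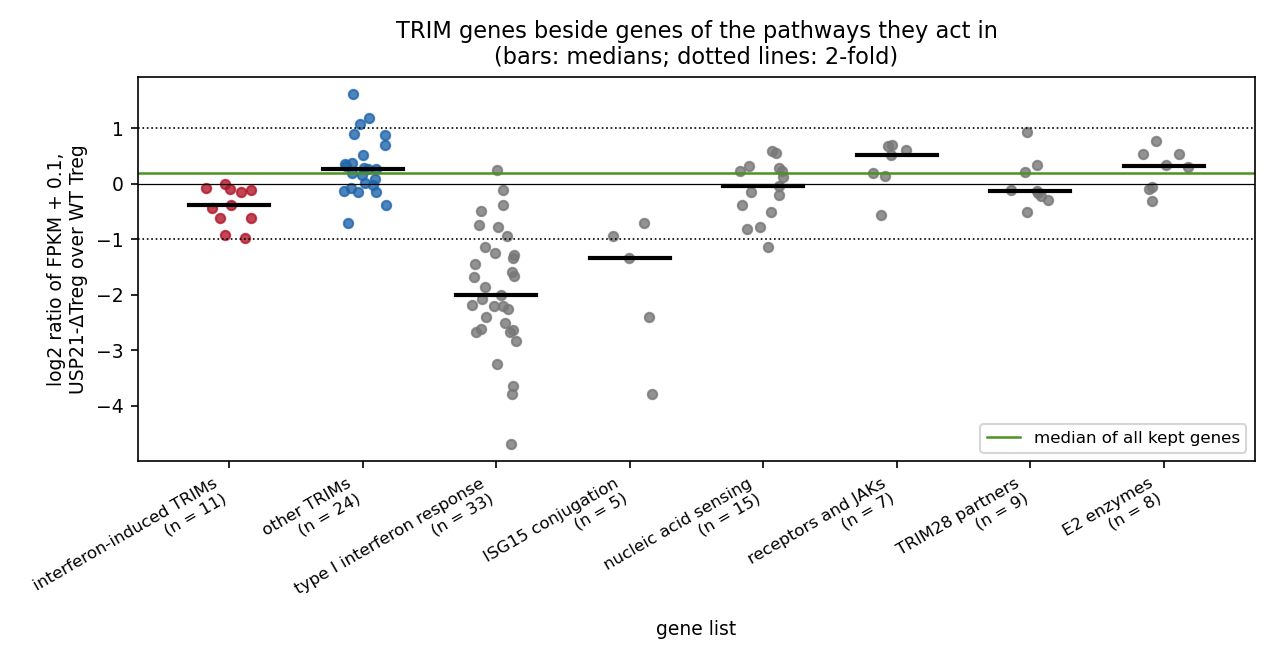
Log2 ratios of FPKM + 0.1, USP21-ΔTreg over WT Treg, of single genes (points, with n under each list) and the median of each list (bars), with a line at the median of all kept genes, 0.20. The interferon-induced TRIM genes have a median of −0.38 and the type I interferon response genes one of −2.01.

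The genes at least 2-fold higher belonged to other groups. *Trim2* (Entrez gene 80890, chromosome 3, minus strand, 84160439 to 84306877), an NHL-repeat ligase known for its action on neurofilament in neurons, stood at 1.33 FPKM in WT Treg and 4.26 FPKM in USP21-ΔTreg cells. With 250 and 706 fragments its scaled count ratio was 2.52 (95% interval 2.18 to 2.92), and its log2 ratio of FPKM was 1.61. *Trim68* (Entrez gene 101700, chromosome 7, minus strand, 102677582 to 102687327), described in human cells as a coactivator of the androgen receptor, stood at 3.25 and 7.51 FPKM (1.18), with 193 and 447 fragments and a ratio of 2.07 (1.74 to 2.46). As the interval reaches below 2, counting error alone could place it short of 2-fold. *Trim23* (Entrez gene 81003, chromosome 13, plus strand, 104178797 to 104203372), which carries an ARF GTPase domain and ubiquitinates NEMO, stood at 6.60 and 14.0 FPKM (1.07), yet its scaled count ratio was 1.43 (1.30 to 1.57), short of 2-fold. *Mid2*, which encodes a TRIM protein under another symbol, was also higher, at 1.60 and 5.63 FPKM (1.75). The other measured NHL-repeat genes were nearly level, with *Trim3* at 4.30 and 4.10 FPKM (−0.07) and *Trim32* at 6.53 and 6.95 FPKM (0.09).

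Among the 14 regulators of innate and cytokine signalling outside the interferon-induced group, 11 lay above 0 on FPKM, where 6945 of all 10948 kept genes did, and 11 on scaled counts, where 5411 did. Their median was 0.28 on FPKM and 0.33 on scaled counts. The ER-anchored ligase *Trim13* (3.30 and 6.27 FPKM, 0.91), the membrane-anchored *Trim59* (18.8 and 34.6 FPKM, 0.88) and *Trim39* (10.7 and 17.4 FPKM, 0.70) were the next highest after *Trim68* and *Trim23*. Their ratios of scaled counts were 1.48 (1.18 to 1.85), 1.24 (1.16 to 1.32) and 1.44 (1.32 to 1.56). The SOCS1-binding protein *Trim8* stood at 22.1 and 26.7 FPKM (0.27), *Trim11* at 25.9 and 31.5 FPKM (0.29), and *Trim62*, a ligase of CARD9, at 1.91 and 2.78 FPKM (0.52). The other 6 regulators had log2 ratios of FPKM from −0.14 to 0.19. Above 0 lay *Trim45* (1.16 and 1.34 FPKM), *Trim35* (36.9 and 41.3 FPKM) and *Trim44* (26.8 and 27.0 FPKM), the last of which lacks a RING domain. Below 0 lay *Trim41* (11.5 and 11.3 FPKM), *Trim65*, a ligase of MDA5 (9.66 and 8.83 FPKM), and *Trim27* (28.1 and 25.4 FPKM). Counting intervals lay below 1 for *Trim27*, *Trim44* and *Trim65*, at ratios of 0.779, 0.835 and 0.875, and spanned 1 for *Trim35*, *Trim41* and *Trim45*.

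The 3 measured TIF1 genes did not go together. *Trim28* (Entrez gene 21849, chromosome 7, plus strand, 12999114 to 13031035) had a log2 ratio of −0.71 on FPKM and a scaled count ratio of 0.598 (0.572 to 0.626), whereas *Trim24*, a cofactor of nuclear receptors (11.1 and 14.2 FPKM), and *Trim33*, a regulator of SMAD4 and TGF-β responses (15.3 and 19.9 FPKM), had log2 ratios of 0.35 and 0.38. On scaled counts *Trim24* and *Trim33* turned to the other side, with ratios of 0.971 (0.910 to 1.04) and 0.954 (0.911 to 0.999), so no direction is given for them. *Trim28* overlaps *Zbtb45* on the other strand. Of the 9 partners of TRIM28 in silencing, 0 were 2-fold apart on either scale (on FPKM 7.78% of all kept genes were higher and 6.2% lower). On FPKM *Hdac1* was lowest (−0.50) and *Atf7ip* highest (0.94), with *Setdb1*, the histone methyltransferase TRIM28 recruits, at −0.14. Below 0 lay 6 of the 9 on FPKM, where 4003 of all 10948 kept genes did, and 8 on scaled counts, where 5537 did. Their median was −0.14 on FPKM and −0.29 on scaled counts.

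Of the remaining measured genes, *Trim37*, a MATH-domain ligase of centriole biology, stood at 7.42 and 5.70 FPKM (−0.38), with a scaled count ratio of 0.610 (0.555 to 0.670). *Trim46*, which organises microtubules in axons, stood at 3.09 and 3.89 FPKM (0.32), *Trim16* at 2.04 and 2.47 FPKM (0.26) and *Trim7* at 1.52 and 1.35 FPKM (−0.15). The intervals of *Trim16* and *Trim7* spanned 1, and *Trim7* had 44 fragments in each library. *Trim16* and *Trim65* overlap *Fbxw10* and *Trim47* on the same strand. Genes named Gm and a number overlap *Trim3*, *Trim12c*, *Trim30d*, *Trim33*, *Trim44* and *Trim68* on the same strand. On the other strand *Trim13*, *Trim32*, *Trim41* and *Trim46* overlap *Dleu2*, *Astn2*, *Rack1* and *Krtcap2*, and several more TRIM genes overlap further genes.

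The ratios of FPKM and of scaled counts parted, and this was not particular to the family. The FPKM log2 ratio was the higher one in 30 of 35 genes, and the largest gaps were those of *Trim23* and *Trim59*, whose scaled counts per FPKM fell by 0.57 on the log2 scale from WT Treg to USP21-ΔTreg cells. Over all kept genes this quantity had a median of −0.20 with its central 90% from −0.48 to 0.07, so both genes lie outside that range. The median of the 35 TRIM genes was −0.18, and 16 of them lay below the median of all genes. Across the 35 TRIM genes the gap had a Spearman's rho of −0.90 with the GC content of the longest transcript, which ran from 37.4% in *Trim23* to 59.8% in *Trim8*. This correlation was computed for the TRIM genes alone, across genes that share the libraries, so it is a description. Its cause was not tested. The next largest gaps were those of *Trim30d* and *Trim33*, for which the quantity was −0.47 and −0.45.

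The 19 TRIM genes under a mean of 1 FPKM were low in both libraries, with at most 50 fragments and 0.862 FPKM, and 14 of them were under 0.2 FPKM in both. Among them were genes of muscle, testis, neurons and erythroid cells. *Trim72*, *Trim9*, *Trim67*, *Trim10*, *Trim58*, *Trim60*, *Trim71*, *Trim66*, *Trim75*, *Trim6*, *Trim17*, *Trim43a*, *Trim43b* and *Trim43c* were these lowest genes, and *Trim15*, *Trim30b*, *Trim36*, *Trim47* and *Trim69* were the others. The counting interval spanned 1 for 17 of the 19. The exceptions were *Trim47*, with 26 fragments in WT Treg and 4 in USP21-ΔTreg cells (ratio 0.137, 0.0348 to 0.395), and *Trim43b*, with 13 and 3 (0.206, 0.0376 to 0.749). *Trim47* overlaps *Trim65* on the same strand and *Trim43b* shares 47.7% of its 50-base words with other genes. *Trim71* had 4 fragments in WT Treg and 0 in USP21-ΔTreg cells, and *Trim58* and *Trim60* had 0 in WT Treg and 3 and 1 in USP21-ΔTreg cells, which is too few to show a difference.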

How the data were processed

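The authors sequenced RNA of sorted CD4+CD25hiYFP+ Treg cells, 1 library per genotype. Reads were filtered for ribosomal RNA, adaptors and low quality, mapped to mm10 with TopHat2 2.0.9 and quantified with Cufflinks 2.1.1. The methods name strand-specific total RNA libraries, while the labels name a TruSeq RNA kit, and whether counting used strand is not given in the sources used here, so overlapping genes are uncertain. The FPKM values deposited by the authors are fragments scaled for transcript length and library depth. The estimated counts deposited by the authors are fragments scaled between libraries, and the commonest value above 0 (1.03 in WT Treg, 0.918 in USP21-ΔTreg) was taken as that of 1 fragment.

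Ratios used FPKM + 0.1, a minimum mean of 1 FPKM and a 2-fold limit. Scaled count ratios on the log2 scale had 1 fragment added. Exact intervals at 95% cover counting error only, since each genotype had 1 library. They treat estimated fragments as independent counts. As fragments were not counted by molecular identifiers, the intervals can be too narrow even for counting error. Positions, overlaps, GC content and shared 50-base words came from GENCODE M21 (GRCm38, as mm10), and promoters from RefSeq (GRCm38.p6). Every TRIM gene is named, and of each further gene list those past 2-fold or with the largest differences are named, with others chosen after their values were seen. Members and lists were chosen with earlier results of these data known. Scripts ran in Python 3.11.15 with scipy 1.17.1, numpy 2.4.6, matplotlib 3.10.9 and pandas 2.3.3, and the steps were tested on simulated data. A planned comparison of protein sequences between neighbouring genes was replaced by the shared 50-base words.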

Additional observations from a re-analysis of the deposited data

How the results depend on the processing

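No paired analysis was possible because neither genotype had more than 1 library, and for the same reason no library could be left out. Intervals cover counting error alone, so the spread between mice is unknown. A list median was taken as moved when it shifted by over 0.11, the median reach of the log2 counting intervals to either side of the ratio. The number of TRIM genes higher by 2-fold or more, 3 as reported, was 1 after centring on the median of all genes, 6 at a 1.5-fold limit and 1 at a 3-fold limit. The number lower by 2-fold or more, 0 as reported, was 1 without a filter (*Trim47*), 2 on scaled counts, 2 after centring and 2 after upper quartile scaling (*Trim30a* and *Trim30d* in these), and 5 at a 1.5-fold limit. The median over all TRIM genes was −0.19 after centring. That of the interferon-induced group was −0.27 without a filter, −0.51 on scaled counts and −0.58 after centring, and that of the other TRIM genes 0.080 on scaled counts and 0.070 after centring. Signs of single genes turned for 6 of 35 on scaled counts, 5 after centring and 3 after upper quartile scaling, and none of these was past 2-fold (largest log2 ratio 0.38). With 0.01 or 1 FPKM added no sign turned.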

Other observations

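Among the interferon receptors and their kinases, 6 of 7 measured genes lay above 0 on FPKM, as did 6945 of all 10948 kept genes, and 5 on scaled counts, as did 5411 of all. The 7 genes had a median log2 ratio of 0.53 on FPKM and 0.26 on scaled counts, with 0 past 2-fold. *Ifngr1*, a chain of the interferon-γ receptor, stood at 392 FPKM in WT Treg and 596 FPKM in USP21-ΔTreg cells (0.61), and *Jak1* at 111 and 181 FPKM (0.70). *Ifngr2*, the other chain, lay below 0, at 16.5 and 11.1 FPKM (−0.56).

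Of the 8 E2 enzymes that hand ubiquitin to TRIM ligases, 0 were past 2-fold (on FPKM 7.78% of all kept genes were higher and 6.2% lower). Their log2 ratios of FPKM ran from −0.31 to 0.76. Their median log2 ratio was 0.32 on FPKM and −0.20 on scaled counts, so the direction depends on the scale. *Ube2d2a* was the highest, at 67.4 and 114 FPKM (0.76 on FPKM, 0.32 on scaled counts). *Ube2v1* was the lowest on FPKM, at 58.7 and 47.3 FPKM (−0.31 on FPKM, −0.42 on scaled counts). *Ube2d3* was the most abundant of the list, at 170 and 214 FPKM (0.33 on FPKM, −0.21 on scaled counts).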
